A study of Mus musculus with 2 samples.

Results

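The genes described here make sterols and fatty acids or bring them into the cell, and they were chosen as a list of 39 gene symbols. Of these genes, 38 had a probe that the array annotation assigns to that symbol alone, out of 19057 genes named on the arrays, and the 38 genes held 71 probes. *Acat2*, the cytosolic thiolase that opens the sterol pathway, had no such probe and was not analysed here. The sterol branch held 15 listed genes, the fatty acid branch 19, and 5 genes that control both pathways were kept apart. RNA labelled as ovarian was compared between WT mice and HOM mice, 1 array each, to ask how gene expression differs where leptin receptor signaling is impaired. WT was C57BL/6. HOM was Y123F on a C57BL/6 background, homozygous for a leptin receptor in which phenylalanine stands at Tyr985, Tyr1077 and Tyr1138 of the long form LepRb. The change is in the germ line and so in every cell, and the strain was described earlier as obese. The mice were females of 12 weeks, the WT mice came from the same litters, and RNA of several mice was mixed for each array. A single array for each genotype leaves no replicate error and allows no test, so each ratio describes 2 pools of RNA, and "higher" or "lower" below names a measured value and not a tested change.

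Cells build cholesterol from acetyl-CoA through mevalonate, squalene and lanosterol, and they build fatty acids from the same acetyl-CoA through malonyl-CoA. Both pathways are controlled by the membrane-bound SREBP transcription factors. When sterols are low, SCAP escorts SREBP from the endoplasmic reticulum to the Golgi, where proteases release the active factor. When sterols are high, the INSIG proteins hold SCAP back. SREBP-2, encoded by *Srebf2*, mainly drives sterol genes and its own gene, and SREBP-1c, encoded by *Srebf1*, mainly drives fatty acid genes. In the ovary cholesterol is the substrate for steroid hormones. SREBPs bind sterol regulatory elements, often beside a CCAAT box, which is bound by NF-Y.

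The promoters of 4 genes are shown because they hold these letters in different arrangements. *Srebf2* is the listed gene with the highest ratio, and *Sc4mol* carries the same 8-letter element. *Cyp51* is a sterol enzyme with a higher normalized value on the HOM array, and *Mvk* is one detected on that array only. The sequences are from RefSeq (GRCm38.p6) and run from 250 bases before to 50 bases after the annotated start, 5′ to 3′. Capitals mark TCACNCCA, the core of a sterol regulatory element, and CCAAT, on either strand.
Srebf2, chr15:82147019-82147318 (+ strand): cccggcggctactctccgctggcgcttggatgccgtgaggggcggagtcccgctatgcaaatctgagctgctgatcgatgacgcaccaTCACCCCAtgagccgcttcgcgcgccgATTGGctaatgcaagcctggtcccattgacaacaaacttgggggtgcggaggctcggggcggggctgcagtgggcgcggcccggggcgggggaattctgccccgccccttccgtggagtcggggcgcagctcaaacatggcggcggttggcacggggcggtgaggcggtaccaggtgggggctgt
Cyp51, chr5:4104648-4104947 (- strand): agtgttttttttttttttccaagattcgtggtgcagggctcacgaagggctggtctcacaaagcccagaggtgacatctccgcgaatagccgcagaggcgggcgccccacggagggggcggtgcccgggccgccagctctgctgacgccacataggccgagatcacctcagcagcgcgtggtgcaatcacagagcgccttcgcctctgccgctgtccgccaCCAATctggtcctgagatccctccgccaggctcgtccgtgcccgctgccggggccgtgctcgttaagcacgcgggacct
Mvk, chr5:114444019-114444318 (+ strand): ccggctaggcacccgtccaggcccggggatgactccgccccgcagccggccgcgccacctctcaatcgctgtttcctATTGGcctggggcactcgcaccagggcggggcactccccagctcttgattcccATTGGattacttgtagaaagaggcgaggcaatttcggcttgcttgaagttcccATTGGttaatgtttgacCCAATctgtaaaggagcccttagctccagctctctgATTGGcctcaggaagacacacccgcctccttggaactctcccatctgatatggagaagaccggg
Sc4mol, chr8:64733529-64733828 (- strand): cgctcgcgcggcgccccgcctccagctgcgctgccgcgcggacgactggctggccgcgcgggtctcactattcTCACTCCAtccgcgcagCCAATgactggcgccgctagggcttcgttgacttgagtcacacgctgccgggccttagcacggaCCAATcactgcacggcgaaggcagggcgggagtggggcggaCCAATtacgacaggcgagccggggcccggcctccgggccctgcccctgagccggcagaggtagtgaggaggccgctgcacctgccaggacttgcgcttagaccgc

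In *Srebf2* the sterol element began at position -162 from the start and the CCAAT box, on the reverse strand, at position -135. *Sc4mol* held the element at position -177 and 3 CCAAT boxes. *Mvk* held 5 CCAAT boxes and *Cyp51* held 1, and neither had a match to TCACNCCA. Only exact matches to these letters were counted, so the lack of a match does not show that a promoter has no sterol element. RefSeq promoters were given for 30 of the listed genes, *Acat2* included, 40 promoters in all, since a gene can have several starts. None was at hand for *Fdps*, *Sqle*, *Scarb1*, *Scd1*, *Scd2*, *Fads1*, *Lpl*, *Fabp4* and *Fabp5*, so the counts do not cover these. TCACNCCA was found in 2 of these 40 promoters (5.0%) against 4.36% of all 32851 promoters, and the longer form TCACNCCAC, which contains it, in none of the 40 against 1.24%. The shorter form was searched after the longer one had given no match. CCAAT was found in 11 of 15 promoters of the sterol branch (73.3%) and in 8 of 15 of the fatty acid branch (53.3%), against 37.4% of all promoters. The E-box CACGTG, which SREBP-1 can also bind, was found in 2 of 15 and 1 of 15, against 7.15%. Such a match describes the letters of this window and does not show that a factor binds there.

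The probe intensities were background-subtracted. Detection required a p-value below 0.01 against negative control beads, which 32.9% of WT probes and 34.4% of HOM probes reached, the dimmest of them at signals of 15.1 and 15.9. Signals are printed as deposited, WT first and HOM second, and log2 HOM/WT is given after background correction, the addition of 16, which draws dim ratios toward 1, and quantile normalization. A gene is represented by its brightest probe. The HOM array was brighter as a whole. Over the 9817 detected genes log2 HOM/WT had a median of 0.28 if the arrays were left unscaled, of 0.04 once quantile normalized and of 0.01 with median scaling. A gene can therefore have a slightly higher signal on the HOM array and a log2 HOM/WT below 0. Between probes of the same gene, log2 HOM/WT had an SD of 0.33 over 3225 genes, and over all detected genes it had an SD of 0.41. The tissue is labelled as ovaries, but only 4 of the 19 ovarian markers on the arrays reached detection. Of these, 2 did so in both genotypes, *Inha* (21.6 and 49.3) and *Gdf9* (21.3 and 34.7). *Star* and *Cyp11a1*, which start steroid synthesis, were not detected, with signals of 1.44 and -1.48 on the WT array and 1.72 and 4.18 on the HOM array. Of 14 uterine markers 11 were detected, all but *Hoxa10*, *Hoxd11* and *Emx2*, and of 8 smooth muscle markers 7. Among all 19057 genes named on the arrays, 9817 were detected. The labelled organ is therefore in doubt, and the values below may not be readings of ovary. Lower RNA per cell and fewer cells of a type cannot be told apart in such pools.

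Of the 38 measured genes, 30 were detected on at least 1 array, 26 of them on both, 3 on the HOM array only and 1 on the WT array only. At 2-fold, the rule of size used here, *Srebf2* was higher on the HOM array and *Lpl*, lipoprotein lipase, was lower. That is 1 of 30 listed genes in each direction, against 0.418% of all detected genes higher and 1.49% lower (1.57% and 0.509% without scaling), and a count of 1 carries little weight. The sterol branch had a median log2 HOM/WT of 0.24 over 12 detected genes and the fatty acid branch a median of -0.16 over 13. In the sterol branch 9 of 12 genes had a value above 0 and in the fatty acid branch 4 of 13, against 53.8% of all detected genes. Over genes detected on both arrays, 7 of 9 sterol genes and 4 of 13 fatty acid genes were above 0, against 52.7% of all such genes. Without scaling 11 of 12 and 7 of 13 were above 0, against 73.6% of all detected genes.

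**Figure D1:**
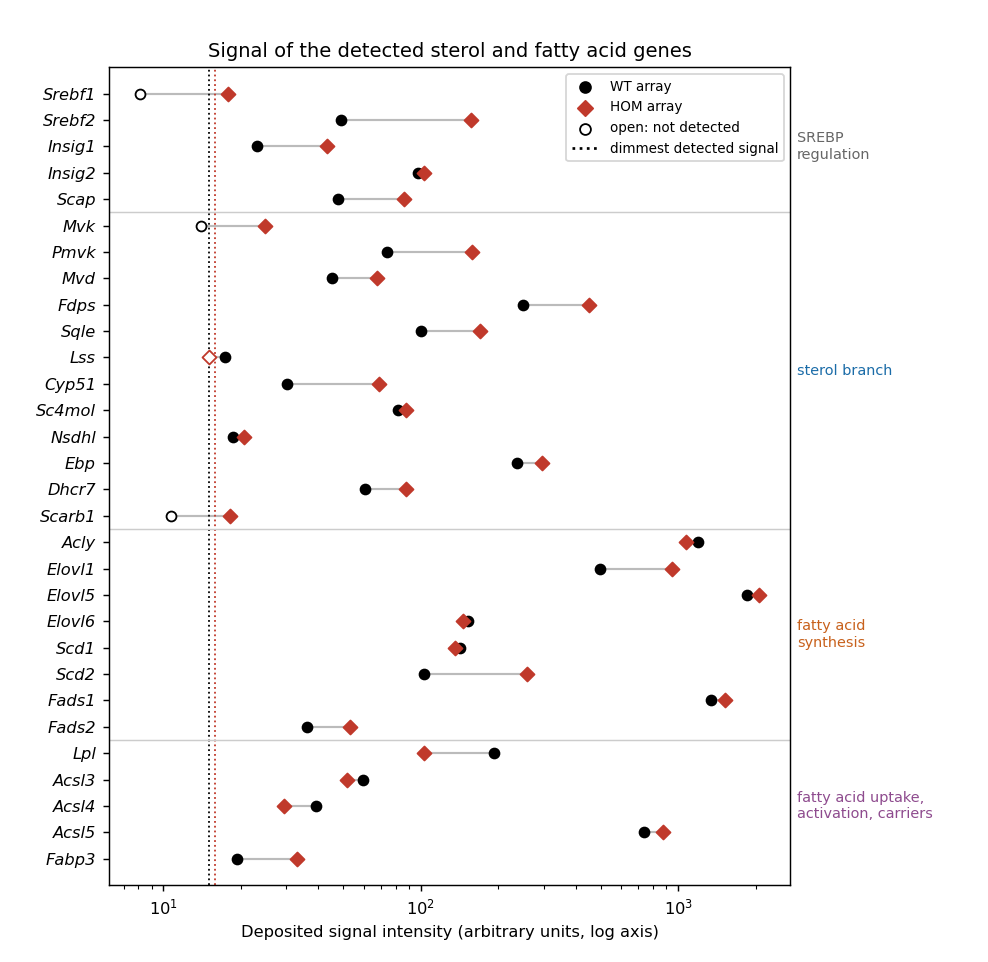
Deposited signal intensity (arbitrary units, log axis) of the 30 detected genes, with circles for the WT array and diamonds for the HOM array. Open symbols are below detection, the dotted lines mark the dimmest detected signal of each array (15.1 and 15.9), and the widest step upward is that of Srebf2, from 49.0 to 157, among genes detected on both arrays.

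All 5 control genes were detected. Of the 4 detected on both arrays, 3 had a log2 HOM/WT above 0, against 52.7% of all such genes on the arrays. *Srebf2* had signals of 49.0 and 157 (HOM/WT = 2.26, log2 1.18). Its other probe, made against a different transcript record, had signals of 21.4 and 26.7 and a log2 HOM/WT of 0.04, so the probes did not give the same ratio and their mean of 0.61 was below 2-fold. *Scap*, the escort protein, had signals of 47.9 and 85.7 on one probe (log2 0.47) and 52.6 and 74.6 on the other (0.19). Both probes lay on the same side of 0, with different sizes. *Insig1*, the sterol-induced retention protein, had signals of 23.1 and 43.3 (0.43) and, on its other detected probe, 20.6 and 28.7 (0.13). A further 2 *Insig1* probes were not detected on either array. *Insig2*, the other retention protein, had signals of 97.8 and 102.6 (-0.20, and 0.06 without scaling), and its other detected probe, for another transcript record, had 53.1 and 30.4 (-0.77). *Insig2* was thus the control gene whose brightest probe was below 0. *Srebf1* was detected on the HOM array only, with signals of 8.09 and 17.9 on its brighter probe. No fold is given for it, because the signal on the HOM array lay too close to the limit of detection, and the other probe, at 13.1 and 9.61, was not detected on either array.

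The enzymes of the sterol pathway are given in the order of the pathway. Mevalonate kinase, *Mvk*, was detected on the HOM array only, with signals of 13.98 and 24.7. Its bound, at least 1.19-fold higher there, leaves out measurement error. The log2 HOM/WT of *Mvk*, 0.30, was within the SD of 0.33 between probes of a gene. *Pmvk*, which adds the next phosphate, had signals of 73.9 and 158 (HOM/WT = 1.64, log2 0.71). *Mvd*, which then forms isopentenyl diphosphate, had 45.1 and 67.9 (0.26). All of these mevalonate enzymes were brighter on the HOM array. *Idi1*, the isomerase that follows, was not detected on either array (8.84 and 13.97). *Fdps*, which makes farnesyl diphosphate, had signals of 249.8 and 452 on its brightest probe (HOM/WT = 1.43, log2 0.52) and 16.4 and 40.9 on the other (0.65), so that here the probes lay close together. *Sqle*, squalene epoxidase, had 100.02 and 169 (0.40), while a dimmer probe had 17.4 and 20.9 (0.01). 

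After the closure of the ring the values were smaller, apart from *Cyp51*. *Lss*, lanosterol synthase, which closes the ring, was detected on the WT array only, with signals of 17.4 and 15.025. Its bound, HOM lower by a factor of at least 1.14, leaves out measurement error. Its log2 HOM/WT of -0.22 was within the SD of 0.33 between probes of a gene, so no clear direction is given. *Cyp51*, the lanosterol demethylase, had signals of 30.1 and 68.5 (HOM/WT = 1.60, log2 0.68). The methyl oxidase *Sc4mol*, named *Msmo1* in the annotation, had 81.4 and 87.3 (-0.14, and 0.09 without scaling). *Nsdhl*, which acts with it in removing the same methyl groups, had 18.6 and 20.5 (-0.06, and 0.08 without scaling), with 0.03 on its other detected probe. The values of both genes were near 0. The isomerase *Ebp* had 237 and 295 (0.01). *Sc5d*, the desaturase after it, was not detected (9.93 and 8.81). *Dhcr7*, the last reductase of one route to cholesterol, had 60.5 and 87.7 (0.23). *Scarb1*, the receptor that takes up cholesterol esters from HDL, reached detection only in HOM (10.7 and 18.2), and its bound, at least 1.01-fold higher, gives no clear direction. In the sterol branch the 3 values above 0.5 were those of *Pmvk*, *Cyp51* and *Fdps*, and none was past 2-fold.

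**Figure D2:**
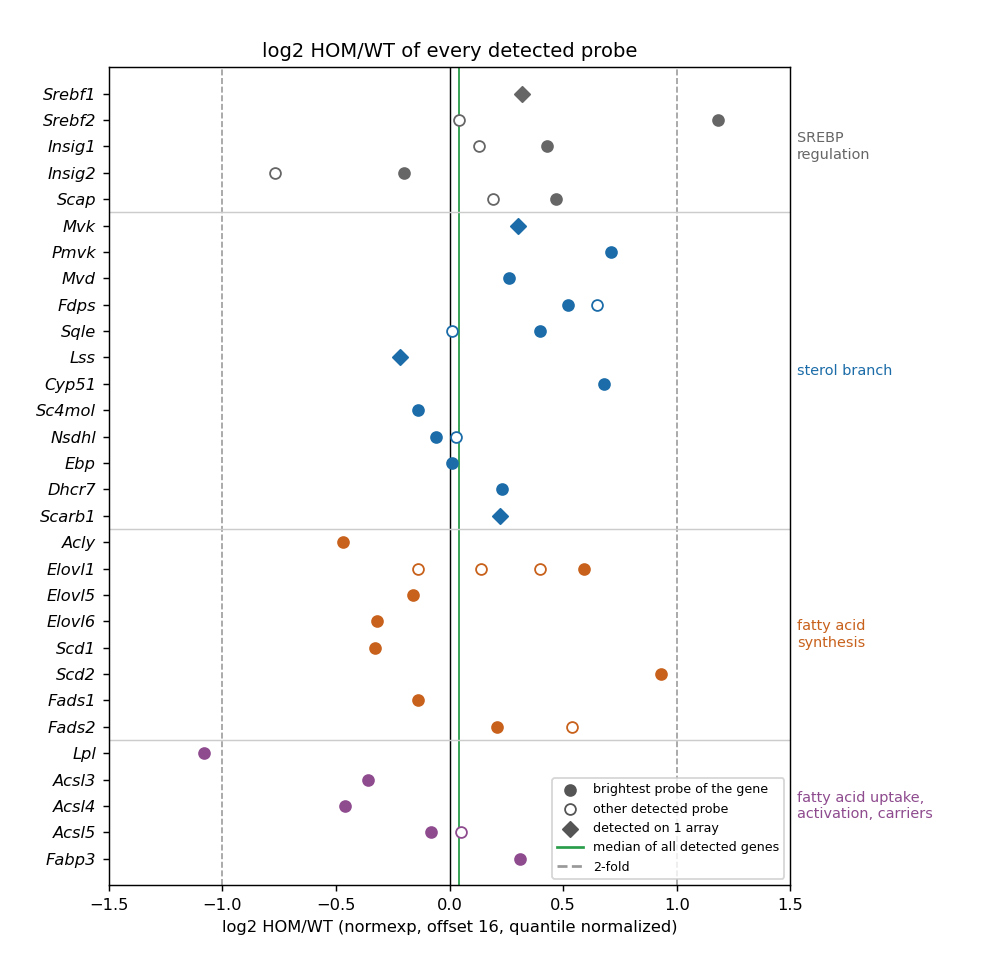
log2 HOM/WT of every detected probe of the listed genes after quantile normalization, with filled symbols for the probe that represents the gene, open circles for its other detected probes and diamonds for probes detected on 1 array. Dashed lines mark 2-fold and the green line the median of all detected genes (0.04); only Srebf2 (1.18) and Lpl (-1.08) lie beyond 2-fold.

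Among the enzymes that make and modify fatty acids, 3 of 8 detected genes had a log2 HOM/WT above 0, against 53.8% of all detected genes. Their median was -0.15. *Acly*, which splits citrate to acetyl-CoA and so feeds both branches, had a log2 HOM/WT of -0.47 (signals 1191 and 1073), or -0.15 if unscaled. *Acaca*, which makes malonyl-CoA (4.22 and 6.34), *Fasn*, the fatty acid synthase itself (-2.86 and 2.35), and the NADPH-producing malic enzyme *Me1* (3.39 and 7.61) were not detected on either array, each by its only probe. The core of fatty acid synthesis therefore gave no ratio here. *Elovl1*, which elongates very long saturated chains, had 4 detected probes. The brightest had signals of 497 and 945 (HOM/WT = 1.51, log2 0.59), and the others had log2 values of 0.40, 0.14 and -0.14 in the order of their signals. *Elovl5*, an elongase of polyunsaturated chains, had 1852 and 2068 (-0.16, and 0.16 without scaling). *Elovl6*, which elongates palmitate, had 153 and 147 (-0.32). The elongases thus held values of both signs, and the sign for *Elovl1* depended on the probe.

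The paralogous stearoyl-CoA desaturases, which place the first double bond into saturated chains, differed on these arrays. *Scd2* had signals of 103 and 259 (HOM/WT = 1.91, log2 0.93), just inside 2-fold, and it was past 2-fold without scaling (1.21), without background correction (1.03) and in the authors' normalized values (1.02). *Scd1* had 142 and 136 (HOM/WT = 0.796, log2 -0.33). Each has 1 probe, so no second reading was at hand for either. The desaturases of polyunsaturated chains lay closer to 0. *Fads1* had 1338 and 1517 (-0.14, and 0.18 without scaling), and *Fads2* had 36.2 and 53.1 (0.21), with 0.54 on a dimmer probe (20.7 and 44.0).

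Among genes of uptake, activation and carriage, 4 of 5 detected genes had values below 0. The 1 above 0 compares with 53.8% of all detected genes, and a group of 5 is small. The median log2 HOM/WT was -0.36. *Lpl*, which frees fatty acids from lipoproteins at the capillary wall, had signals of 193 and 103 (HOM/WT = 0.473, log2 -1.08, and -0.82 without scaling). Its other probe was not detected on either array. Among the long-chain acyl-CoA synthetases, which activate fatty acids in the cell, *Acsl3* had 59.6 and 51.8 (-0.36), and *Acsl4*, which prefers arachidonate, had 39.2 and 29.5 (-0.46). These are the brightest of 3 and 4 probes and the only ones detected. Another *Acsl4* probe, for a different transcript record, had -2.29 and 15.8 and fell just short of detection on the HOM array. *Acsl5*, the third synthetase, had 737 and 874 (-0.08, and 0.24 without scaling), and its other detected probe had 0.05. *Fabp3*, the fatty acid carrier of muscle, had 19.3 and 32.9 (0.31) and was the only gene of this group above 0. The fatty acid translocase *Cd36* (-0.797 and 4.33), the adipocyte carrier *Fabp4* (-1.40 and -4.12) and the epidermal carrier *Fabp5* (3.35 and 4.54 on its brighter probe) were not detected on either array.

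Fat cells and macrophages are known to make *Lpl*, which acts on capillaries, so markers of these cells are given beside it. Of 12 measured adipocyte markers 4 were detected. The summed signal of the 12 was 461 in WT and 747 in HOM, most of it from *Pnpla2* (302 and 545), a lipase found in many tissues. The defining *Adipoq* (-0.838 and 11.2), *Plin1* (2.49 and -0.745) and *Cidec* (8.63 and -0.876) were not detected on either array. All 10 capillary endothelial markers were detected, with a summed signal of 5822 and 6798 and a median log2 HOM/WT of -0.01. Above 0 were 5 of them, against 53.8% of all detected genes. *Gpihbp1*, which anchors lipoprotein lipase to the capillary wall, had signals of 47.7 and 69.0 (0.21, or 0.11 averaged over its detected probes). Of 7 macrophage markers 6 were detected, with a median of 0.06, and the summed signal of the 7 was 1619 and 2332. *Lyz2* carried most of that sum (841 and 1471, log2 0.48, or 0.17 averaged over its detected probes). The other markers detected on both arrays were *Mrc1* (163 and 104, -0.84), *Adgre1* (-0.25), *Cd14* (-0.05) and *Csf1r* (0.18). Averaged over detected probes, *Adgre1* had -0.35 and *Csf1r* 0.28. *Fcgr1* was detected on the HOM array only. These sums are unscaled and run over all measured markers, detected or not, with negative signals taken as 0. Over all 19057 genes named on the arrays the sum was 3309500 and 3987900. The part of these cells in the *Lpl* ratio was not tested.

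The medians of the branches differed by 0.40 on the log2 scale, the sterol branch being higher. This difference was 0.28 after median scaling and without scaling, where a common factor cancels, and 0.55 without background correction and in the authors' normalized values. With enzymes of synthesis alone the medians were 0.26 and -0.15. Among genes with a mean signal of 50 to 200, the 5 sterol genes had a median of 0.26 and the 5 fatty acid genes one of -0.33, with 0.04 for all 3228 detected genes in that range. Below a signal of 50 the medians were 0.22 over 5 and 0.21 over 3 genes, and from 200 to 1000 they were 0.26 over 2 genes of each branch. Of the 3 ranges that held both branches, the difference was thus seen in 1, and above 1000 there were fatty acid genes only (3, with a median of -0.16). The branches overlapped widely, from -0.22 to 0.71 and from -1.08 to 0.93, and with 1 array per genotype the difference was not tested.

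**Figure D3:**
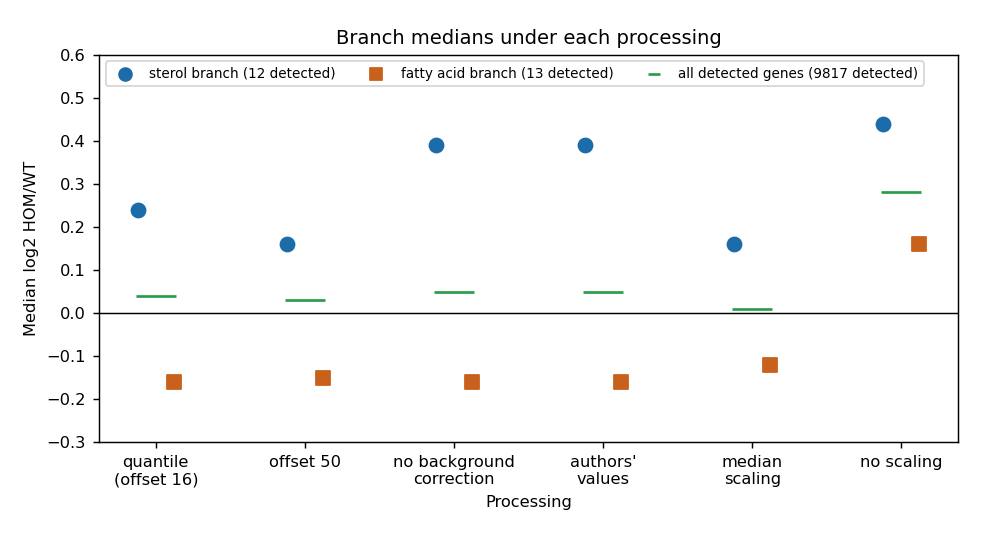
Median log2 HOM/WT of the sterol branch (blue circles, 12 detected genes), the fatty acid branch (orange squares, 13) and all 9817 detected genes (green bars) under 6 ways of processing. The sterol median lies above that of all genes and the fatty acid median below it under each of these ways, while the fatty acid median is below 0 except without scaling (0.16). Some of these ways are close to each other by construction.

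Other genes of these pathways did not all follow the listed ones. Their lists were drawn from general knowledge, with earlier results of these data already known. Of 73 measured, 45 were detected, 26 with a log2 HOM/WT above 0 (57.8%, against 53.8% of all detected genes). None was at least 2-fold higher and 1 was at least 2-fold lower, against 0.418% and 1.49% of all detected genes. The same 53.8% stands beside the counts above 0 of each list below, which are small. In sterol synthesis 3 of 5 measured genes were detected. *Tm7sf2*, a sterol reductase, reached detection only in HOM, with signals of 8.62 and 22.9. Its bound, at least 1.14-fold higher there, leaves out measurement error. *Lbr*, which carries the same reductase activity in the nuclear envelope, had signals of 547 and 485 (-0.48), and *Hsd17b7* had 77.9 and 107.7 (0.16). The paper reports *Hsd17b7* as lower in HOM, on its array and by qPCR, so its direction differs from that of the deposited signals. For *Acsl4* and *Fabp3* the paper's array changes have the same direction as here and are larger. Of the SREBP processing genes, *Mbtps1*, the Golgi protease that makes the first cut, had signals of 241 and 398 (0.39), and *Trib1* had 0.13. In sterol transport and efflux 3 of 10 detected genes were above 0, with a median of -0.18. *Stard4*, a cholesterol transfer protein that SREBP-2 is known to induce, had signals of 170.4 and 93.3 (-1.02, and -0.77 without scaling) and was the gene past 2-fold. In the same list *Apoe*, an apolipoprotein of efflux and uptake, had 648 and 1322 (0.68), the lipoprotein receptor *Vldlr* had 782 and 629 (-0.61, or -0.25 averaged over its detected probes), and the lysosomal lipase *Lipa* had 119 and 97.1 (-0.51). For comparison, *Srebf2* had 1.18 on its brightest probe, 0.04 on its other probe and a mean of 0.61. A link between these genes was not tested.

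In other genes of fatty acid synthesis 7 of 11 detected genes were above 0, with a median of 0.04, the median of all detected genes. The reductase *Tecr*, which completes each elongation cycle, had signals of 689.7 and 1227 (0.49), and *Hsd17b12*, which acts earlier in that cycle, had 224 and 182 (-0.55, or -0.14 averaged over its detected probes). *Acss2*, which makes acetyl-CoA from acetate, had 198 and 172 (-0.46), and *Elovl4* had 16.2 and 31.6 (0.41). In uptake and activation 4 of 8 detected genes were above 0, with a median of -0.03. The transporter *Slc27a3* had 28.6 and 71.1 (0.77), *Acbd3* had 200.1 and 172 (-0.48), the transporter *Slc27a1* had 21.9 and 17.4 (-0.32), and *Lmf1*, which helps lipoprotein lipase to mature, had 104 and 165 (0.31). The low median of the listed uptake genes was therefore not shared by this second list.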

How the data were processed

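The authors measured pooled RNA on Illumina MouseWG-6 v2.0 arrays, 1 for WT and 1 for HOM. They deposited background-subtracted signal intensities with a detection p-value for each probe. The submitters' processing notes name GenomeStudio, while the Methods name BeadStudio with robust multichip analysis, and no version is given. They also deposited normalized intensities, and a check gave a largest difference of 1.57 from quantile normalization of the same signals on the linear scale.

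Of 45281 probes, 34885 had a single gene symbol in the platform annotation. A further 18 had several and 10378 had no entry, and neither kind entered the gene results. Signals were corrected by normexp from the detection p-values in limma 3.58.1 (R 4.3.3), 16 was added, and log2 values were quantile normalized. The normalization was tested on simulated arrays, with known ratios set in brighter probes only and no difference in brightness between the arrays. That test therefore did not cover dim genes or the brighter HOM array. For a probe detected on 1 array, a bound is given against the lowest detected value on the other, or its own value where that was higher. The bound takes the readings as exact, so a small one gives no clear direction. No test was possible, and genes were counted at 2-fold. Members and lists were chosen with earlier results of these data known. Every listed gene is named, with up to 4 detected genes of the largest absolute log2 HOM/WT in each further list and those past 2-fold. *Star*, *Cyp11a1*, *Inha*, *Gdf9*, *Gpihbp1*, the macrophage markers other than *Lyz2* and the undetected uterine and adipocyte markers were chosen after their values were seen. The alternatives were an added 50, no background correction, median scaling or none, the authors' values, other detection criteria, the mean over probes, other branch members and 1.5-fold.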

Additional observations from a re-analysis of the deposited data

How the results depend on the processing

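The direction of the difference between the branches was kept under all alternatives run, with values from 0.28 to 0.55 against 0.40. The sterol median of 0.24 was 0.39 without background correction and in the authors' normalized values, and 0.44 without scaling. The fatty acid median of -0.16 turned to 0.16 without scaling, where all detected genes had a median of 0.28. The difference was 0.55 without background correction and in the authors' values, and 0.28 with median scaling or no scaling. Median scaling and no scaling differ by a common factor only, so their difference is the same by construction. The authors' values are nearly the quantile normalization without background correction, so these are not separate readings either. Within the ranges of signal given above, the difference was not kept throughout. The other alternatives, an added 50, detection on both arrays or at a p-value below 0.05, the mean over probes and *Srebf2* and *Srebf1* added to the branches, moved no median by more than 0.1. Neither did bounds for genes detected on 1 array or enzymes of synthesis alone, which were chosen after seeing the data. The count of listed genes at least 2-fold higher, 1, was 0 with an added 50 and with the mean over probes (0.0407% and 0.357% of all detected genes). It was 2, *Srebf2* and *Scd2*, without background correction (3.74%), without scaling (1.57%) and in the authors' values (3.74%), and 5 at 1.5-fold (5.27%). The count of lower genes, 1, was 0 with an added 50 (0.489%) and without scaling (0.509%). Without scaling all values shift upward, so the sign of genes near 0 has no meaning there. Among genes detected on both arrays, *Srebf2* (to 0.61) and *Elovl1* (to 0.25) moved by more than the SD between probes with the mean over probes. Signals near 15 limit *Srebf1*, *Mvk*, *Lss* and *Scarb1* to bounds.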

Other observations

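Genes that store fatty acids as acylglycerols or use them for phospholipids were looked at as a further list. Of 15 measured, 11 were detected. None lay beyond 2-fold and 8 were above 0, against 53.8% of all detected genes. The median was 0.14 on the log2 scale (0.05 with median scaling). *Dgat2*, which completes triacylglycerol synthesis, had signals of 617 in WT and 1204 in HOM (0.63). *Dgat1*, which catalyses the same step, had 32.4 and 35.6 (-0.10). Among the acyltransferases that make phosphatidic acid, *Agpat4* had 321 and 601 (0.57) and *Agpat2* had 67.1 and 114 (0.41), while *Agpat5* had 30.6 and 17.6 (-0.62). *Dgat1* was named beside *Dgat2* after its values had been seen.

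*Esr1*, the estrogen receptor, and *Hoxa11*, both on the list of uterine markers, were more than 2-fold lower on the HOM array, with signals of 374 and 161 (-1.44) and of 101 and 48.7 (-1.09). *Ltf*, lactotransferrin of the same list, had 443 and 1544 (1.45). Over the 11 detected genes of that list the median was -0.13. The part of a different makeup of the pools in the lipid gene values was not tested.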
